A study of Mus musculus with 96 samples.

Results

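The Toll-like receptors and the proteins that let them sense lipopolysaccharide (LPS), the outer membrane glycolipid of Gram-negative bacteria, were followed across a small-molecule screen in mouse macrophages. The members were chosen by name and comprised 10 of the 23481 gene symbols of the count table: the receptor genes Tlr1, Tlr2, Tlr4, Tlr6, Tlr7 and Tlr13, the LPS-binding coreceptor genes Cd14 and Ly96, and the adaptor genes Myd88 and Ticam1. Macrophages were grown from the bone marrow of male wild-type C57BL/6 mice aged 8 weeks, in medium conditioned with the growth factor MCSF. The 96 libraries made 12 groups of 8, each with 4 wells on each of 2 plates. One group, NoStim, received no LPS, and its labels name no vehicle. In the other 11 groups LPS was given for 4 h after a pretreatment of 30 minutes with DMSO, the vehicle, or with Tunicamycin, tBHQ, Halofuginone, Torin, Dexa, Caspase-1, pGE2, BrefA, ZVAD or Baflo, named here as in the labels. The labels give no dose and say nothing more of what the Caspase-1 wells received, and no compound was tested without LPS. Wells were not said to be separate cultures or animals, so the p-values measure the spread between wells, which may be technical.

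Toll-like receptors are membrane proteins of innate immune cells that recognise conserved microbial molecules. Tlr4, held with the small secreted protein MD-2 (encoded by Ly96), is the LPS receptor, and CD14 delivers LPS to it and takes part in carrying it into endosomes. Tlr2 recognises bacterial lipopeptides as a dimer with Tlr1 or Tlr6, Tlr7 recognises single-stranded RNA in endosomes, and Tlr13, a mouse receptor, recognises bacterial ribosomal RNA there. MyD88 carries the signal of these receptors towards NF-kB and MAP kinases, and TRIF (encoded by Ticam1) carries the endosomal Tlr4 signal towards interferon induction.

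The upstream sequences of 4 members whose counts changed with LPS are shown because 3 of them rose and 1 fell. They come from RefSeq's annotation of build GRCm38.p6, the assembly of mm10. Each was read 5′ to 3′ on the strand of its gene from the 250 bases before the RefSeq start, and bases that GENCODE M21 places in an exon were left out. The stretches lie at chr3:83841768-83841858 (minus strand, 91 bases) for Tlr2, at chr9:119340042-119340268 (minus strand, 227 bases) for Myd88, at chr5:64933564-64933808 (minus strand, 245 bases) for Tlr1 and at chrX:106143025-106143203 (plus strand, 179 bases) for Tlr13. That of Myd88 lies inside the gene's annotated span, and the others lie directly before their genes. Capitals mark matches to the NF-kB letters GGNNNTTCC or to the interferon-stimulated response element letters GAAANNGAA, searched on both strands.
Tlr2: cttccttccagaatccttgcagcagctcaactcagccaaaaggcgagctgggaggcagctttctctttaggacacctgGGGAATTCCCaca
Myd88: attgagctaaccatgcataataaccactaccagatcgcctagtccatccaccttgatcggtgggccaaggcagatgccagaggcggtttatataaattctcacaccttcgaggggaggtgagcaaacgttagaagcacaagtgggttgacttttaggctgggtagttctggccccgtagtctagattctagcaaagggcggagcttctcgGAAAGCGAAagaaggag
Tlr1: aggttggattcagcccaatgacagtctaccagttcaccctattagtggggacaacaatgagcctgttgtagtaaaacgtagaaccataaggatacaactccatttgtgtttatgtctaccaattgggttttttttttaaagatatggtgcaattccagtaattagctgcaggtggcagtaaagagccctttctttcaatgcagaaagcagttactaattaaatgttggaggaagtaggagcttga
Tlr13: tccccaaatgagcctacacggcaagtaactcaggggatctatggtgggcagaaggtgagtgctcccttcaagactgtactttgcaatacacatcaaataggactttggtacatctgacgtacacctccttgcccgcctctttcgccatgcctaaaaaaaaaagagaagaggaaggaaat

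The Tlr2 stretch held overlapping NF-kB matches on both strands, from 172 to 163 bases before the RefSeq start. The Myd88 stretch held 1 interferon-stimulated response element match, from 40 to 32 bases before its start. Of 32851 windows of the same length, 15.7% held the NF-kB letters and 7.13% the interferon-stimulated response element letters. In the stretches of Tlr1 and Tlr13, printed wholly in lower case, neither pattern was found. The 8 member windows searched covered 6 members (Tlr1, Tlr2, Tlr6, Tlr13, Myd88 and Ticam1). None of the 8 held the cyclic AMP response element letters TGACGTCA or the AP-1 letters TGANTCA, which 1.55% and 6.75% of all windows held. Windows of Cd14, Tlr4, Tlr7 and Ly96 were not searched, so nothing is said of their letters. The PU.1 letters GAGGAA occurred in windows of Tlr1, Tlr13 and Ticam1 and in 23.3% of all windows. The E-box letters CACGTG occurred in windows of Tlr1 and Ticam1 and in 6.02% of all windows, and the windows of Tlr6 held both an NF-kB match and a pair of interferon-stimulated response element matches. A match describes the letters and is not evidence of binding.

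Libraries were made from the 3′ ends of transcripts and were shallow. Library totals ran from 80196 to 379198 counts with a median of 257984.5, and the 8 Halofuginone libraries were the shallowest of the groups, at 80196 to 136526. Levels are given as CPM, counts scaled to 1000000 per library, after TMM scaling, the scale on which the fold changes were fitted, and 1 count was worth 3.78 CPM in an average DMSO library and 15.1 CPM in an average Halofuginone library. Cd14 held 16368 counts over all libraries and Tlr2 11184, both with none at 0. Myd88 held 1324 counts, Tlr7 1163, Tlr1 1038 and Tlr13 931, with at most 3 libraries at 0 for each of them. Tlr4 (400 counts), Ly96 (349), Ticam1 (309) and Tlr6 (160) were read at a median of 4, 4, 3 and 1 counts a library; they fell under the filter on low counts, and their fold changes come from a fit of all genes without that filter. The other 6 members were among the 4963 genes tested. Of the 8 macrophage markers, Csf1r, Emr1 (the symbol used for Adgre1), Cd68, Lyz2, Itgam, Fcgr1 and Mrc1 were read in 96 of 96 libraries and Mertk in 36. Among markers of other blood or stromal cells, Cd3e, Cd3g, Elane, Mpo, Cpa3, Mcpt4, Fcer1a and Pdgfra were at 0 throughout. Xcr1, a marker of dendritic cells, held 507 counts and was read in 92 libraries, and S100a8, a marker of neutrophils, held 78 counts, the highest total among the others.

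The first comparison, DMSO wells against NoStim wells, asked how LPS changed the sensing genes. NoStim wells have no stated vehicle or pretreatment and carry letters A to D, while DMSO wells carry E to H. An effect of LPS cannot be told apart from effects of these. Tlr1, Tlr2, Cd14 and Myd88 rose and Tlr13 fell, so that 5 of the 6 members tested were called at an adjusted p below 0.05, 4 higher and 1 lower. Over all 4963 genes 36.1% were called, and the median log2 fold change was 1.28 over the 6 members and -0.04 over all genes. In bulk wells, fewer cells with a transcript and less of it per cell cannot be told apart.

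Tlr2 (chr3:83836272-83841767, minus strand) read 127 CPM in the lowest NoStim library, 160.3 at the median and 187 in the highest. With LPS and DMSO the lowest library read 445 CPM, the median 516 and the highest 581. Each of the 8 DMSO libraries lay above each of the 8 NoStim libraries, and the log2 fold change was 1.70 ± 0.13 (SE; adjusted p = 5.32e-24), a 3.25-fold rise. Its partner Tlr1 (chr5:64924679-64933563, minus strand) read from 5.58 CPM through a median of 17.6 to 27.7 without LPS, and from 21.7 through 38.8 to 92.6 in DMSO wells. The groups overlapped by their outermost libraries, and Tlr1 rose by a log2 fold change of 1.38 ± 0.29 (SE; adjusted p = 4.31e-05). The other partner, Tlr6 (chr5:64952031-64960097, minus strand), gave at most 3 counts in any library of either group, with a log2 fold change of 0.58 ± 0.71 (SE; adjusted p = 0.735). Tlr1 and Tlr6 are close paralogs that stand 18467 bases apart on one strand; the sources used here do not give how reads shared between them were assigned.

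The endosomal receptors moved otherwise. Tlr13 (chrX:106143204-106160493, plus strand) read from 28.6 CPM through a median of 62.1 to 75.2 in NoStim wells and from 15.5 through 34.2 to 52.0 in DMSO wells. The groups overlapped, and Tlr13 fell by 0.78 ± 0.28 on the log2 scale (SE; adjusted p = 0.0201). The fall was -1.07 on plate 1 (adjusted p = 0.0413) and -0.57 on plate 2 (adjusted p = 0.309), and without wells C and G or without wells D and H it was -0.73 (adjusted p = 0.0784) and -0.67 (adjusted p = 0.0937). Tlr7 (chrX:167304929-167330558, minus strand) had means of 36.8 ± 12.8 CPM without LPS and 53.1 ± 12.9 CPM in DMSO wells (SD, n = 8 each), and its log2 fold change of 0.53 ± 0.27 (SE; adjusted p = 0.118) did not pass.

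Cd14 (chromosome 18, positions 36725067 to 36726798, minus strand) read 106 CPM in the lowest NoStim library, 259.9 at the median and 283 in the highest, against 368, 483 and 606 in DMSO wells. Every DMSO library lay above every NoStim library, and the log2 fold change was 1.19 ± 0.13 (SE; adjusted p = 6.75e-14). NoStim means were 271 CPM on plate 1 and 166 CPM on plate 2, and the log2 fold change was 1.02 on plate 1 and 1.34 on plate 2. Ly96 (chr1:16688051-16709611, plus strand), which encodes the MD-2 partner of Tlr4, was read at means of 8.01 ± 4.42 and 11.7 ± 3.67 CPM (SD, n = 8 each) and gave a log2 fold change of 0.60 ± 0.48 (SE; adjusted p = 0.524).

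Tlr4 itself (chr4:66827584-66930284, plus strand) was read at 11.9 CPM in the lowest NoStim library, 22.6 at the median and 49.4 in the highest, and at 0, 8.83 and 25.9 in DMSO wells. The groups overlapped; the log2 fold change was -1.05 ± 0.40 (SE; adjusted p = 0.0617) and did not pass. Its counts ran from 0 to 14 a library, and the call depended on the scaling: with the RLE size factors in place of TMM the value was -1.27 (adjusted p = 0.0124), and without wells B and F it was -1.60 (adjusted p = 0.0145).

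Of the adaptors, Myd88 (chr9:119335934-119341411, minus strand) read 14.3 CPM in the lowest NoStim library, 25.4 at the median and 41.9 in the highest, and 46.1, 79.7 and 96.7 in DMSO wells. No library of one group reached the other, and Myd88 rose 2.71-fold, a log2 fold change of 1.44 ± 0.25 (SE; adjusted p = 3.66e-07). The annotation places Acaa1a across part of Myd88 on the opposite strand. Acaa1a, a peroxisomal thiolase gene with 884 counts in all, had a log2 fold change of -0.12 ± 0.27 (SE; adjusted p = 0.780) in the same comparison. The sources used here do not give whether reads were assigned by strand. Ticam1 (chr17:56269319-56276786, minus strand) had means of 8.86 ± 5.60 CPM without LPS and 16.4 ± 7.05 CPM in DMSO wells (SD, n = 8 each), with a log2 fold change of 0.87 ± 0.45 (SE; adjusted p = 0.246).

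**Figure D1:**
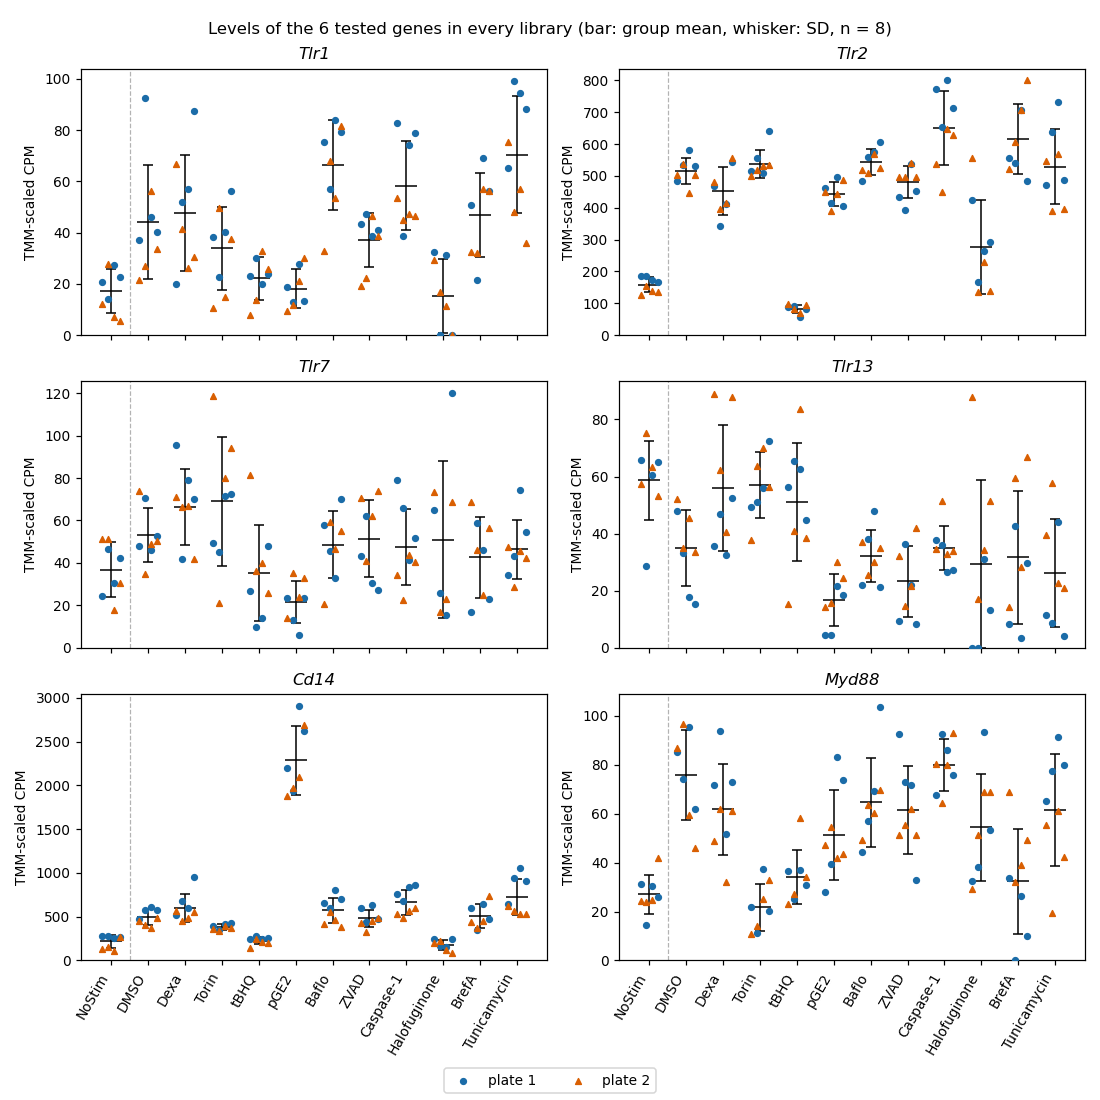
TMM-scaled CPM (linear axis from 0) of the 6 members that were tested, by group, with 1 mark for each library (circles for plate 1, triangles for plate 2), a bar at the group mean and a whisker of 1 SD (n = 8). Tlr2 has its lowest means in tBHQ, NoStim and Halofuginone (82.7, 158 and 276), Cd14 stands apart in pGE2 (2286), and Myd88 has its lowest means in Torin, NoStim and BrefA (21.7, 27.0 and 32.4).

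Lists of other genes of the pathway are given as counts, to be read against the 36.1% of all genes called in this comparison. Of 5 genes of cytosolic LPS sensing and the inflammasome, all tested, 4 rose with LPS and none fell: Casp4, which encodes the intracellular LPS sensor caspase-11 in mice (log2 fold change 2.42 ± 0.19), Nlrp3, the inflammasome sensor (1.79 ± 0.17), Casp1 and Gsdmd. Among 7 tested genes of receptor folding, transport and cleavage none rose and 4 fell, including Slc15a4, an endolysosomal transporter (-0.84 ± 0.28), Lgmn, a lysosomal protease (-0.52 ± 0.15), and Ctsl, a cathepsin (-0.48 ± 0.11). Among 11 tested kinases and ubiquitin ligases 3 rose, led by Tab2, an adaptor of the kinase TAK1 (1.23 ± 0.14), and 2 fell, Irak4 (-1.01 ± 0.24) and Irak1 (-0.39 ± 0.13), the kinases recruited by MyD88. Of 5 tested negative regulators, Tnfaip3 (1.70 ± 0.22) and Trafd1 (1.02 ± 0.16) rose and none fell. The 5 of 11 kinases and ligases and the 2 of 5 negative regulators called lie near the share over all genes. Msr1, a scavenger receptor that binds LPS, was the 1 gene of 4 to rise among LPS-binding proteins and MD-2 relatives (1.44 ± 0.16), Tirap, the bridging adaptor between Tlr2 or Tlr4 and MyD88, was the 1 of 2 other adaptors to rise (0.60 ± 0.19), and Tlr8, the 1 of 6 other Toll-like receptor genes with enough counts, was not called (0.52 ± 0.34). Errors are SE. The median log2 fold change was 1.13 in the cytosolic sensing list and -0.36 in the folding and transport list.

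The 10 compounds were each set against the same 8 DMSO libraries, so the comparisons below share their controls. tBHQ gave the most member calls of them: 0 of the 6 tested members rose and 4 fell, Tlr1, Tlr2, Cd14 and Myd88, against 36.4% of all genes called. The median log2 fold change was -1.06 over the members and 0.04 over all genes.

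Tlr2 read 57.0 CPM in the lowest tBHQ library, 86.0 at the median and 96.9 in the highest. All 8 tBHQ libraries lay below all 8 DMSO libraries, and Tlr2 was 6.26-fold lower, a log2 fold change of -2.65 ± 0.14 (SE; adjusted p = 3.58e-36). tBHQ libraries also lay below all NoStim libraries, with a log2 fold change of -0.94 ± 0.15 against them (SE; adjusted p = 8.34e-07). Tlr2 was the 1 member of 6 called in that comparison, in which 8.3% of all genes were called. Its value was -1.22 on plate 1 and -0.70 on plate 2 (adjusted p = 0.0873 on plate 2).

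Cd14 read 147 CPM in the lowest tBHQ library, 244 at the median and 276 in the highest, all below the lowest DMSO library at 368. Its log2 fold change was -1.12 ± 0.13 against DMSO (SE; adjusted p = 1.7e-12) and 0.06 ± 0.14 against NoStim (SE; adjusted p = 0.849). Myd88 read from 23.3 through 32.5 to 58.1 CPM and overlapped DMSO by its highest library. Its log2 fold change was -1.11 ± 0.24 against DMSO (SE; adjusted p = 7.39e-05) and 0.33 ± 0.28 against NoStim (SE; adjusted p = 0.586). Tlr1 read from 7.76 through 23.6 to 32.7 CPM, overlapped DMSO and fell by 1.01 ± 0.29 on the log2 scale (SE; adjusted p = 0.00275); on plate 2 alone it was -0.79 (adjusted p = 0.230). Thus Tlr2 with tBHQ and LPS stood below its level without LPS, while no difference from NoStim was called for Tlr1, Cd14 and Myd88.

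Tlr4 had the opposite sign. It read 12.8 CPM in the lowest tBHQ library, 25.7 at the median and 45.2 in the highest, with 3 to 11 counts a library, and overlapped DMSO. The fit without a filter gave a log2 fold change of 1.10 ± 0.40 against DMSO (SE; adjusted p = 0.0474), with adjusted p from 0.0666 to 0.493 without wells A and E, C and G or D and H, and 0.05 ± 0.34 against NoStim (SE), which did not pass. Neither endosomal receptor passed against DMSO, Tlr7 at -0.58 ± 0.28 (SE; adjusted p = 0.0901) and Tlr13 at 0.61 ± 0.29 (SE; adjusted p = 0.0878). With the RLE size factors, which moved the median of all genes by 0.14 in this comparison, Tlr13 reached 0.76 (adjusted p = 0.0267). Tlr7 was -1.10 on plate 1 (adjusted p = 0.0272) and -0.16 on plate 2 (adjusted p = 0.818), and -0.67 with the plates' wells summed (adjusted p = 0.0499).

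In the wider pathway, where the share of all genes called was 36.4%, tBHQ lowered 4 of the 5 cytosolic sensing genes and raised none: Casp4 (log2 fold change -1.78 ± 0.18), Nlrp3 (-1.31 ± 0.17), Casp1 (-0.75 ± 0.17) and Gsdmd. It raised 3 of 7 folding and transport genes and lowered none: Slc15a4 (0.99 ± 0.28), Unc93b1, the chaperone that escorts endosomal Toll-like receptors (0.56 ± 0.15), and Ctsl (0.46 ± 0.11). Those 3 of 7 lie near the share over all genes, as do the 2 of 5 negative regulators below. Tab2 (-1.49 ± 0.14) and Tbk1, a kinase of the interferon branch (-0.95 ± 0.24), fell among 11 kinases and ligases, Tnfaip3 (-1.41 ± 0.22) and Trafd1 (-0.89 ± 0.17) fell among 5 negative regulators, and Msr1 fell (-1.37 ± 0.16). Errors are SE.

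**Figure D2:**
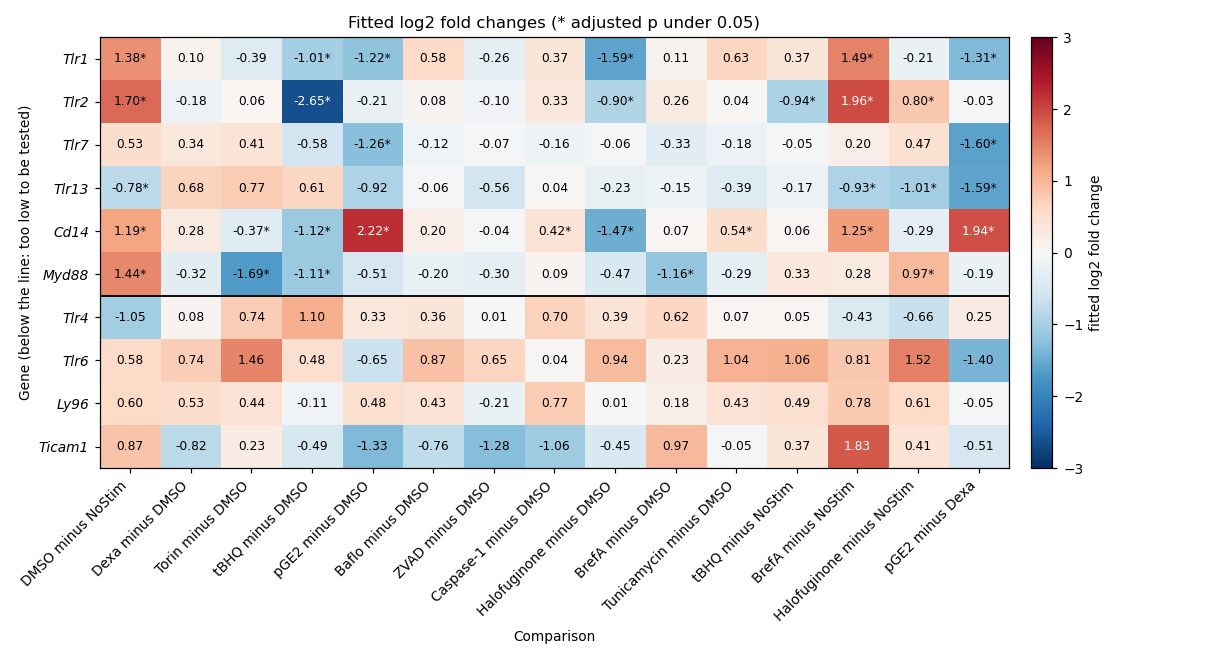
Fitted log2 fold change of the 10 members (rows) in the 15 comparisons (columns) as colour and printed value, with an asterisk where a tested member passed an adjusted p below 0.05; the 4 members below the line come from the fit without a count filter. Cd14 in pGE2 (2.22) and Tlr2 in tBHQ (-2.65) lie farthest from 0 against DMSO.

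pGE2 raised Cd14 and lowered Tlr1 and Tlr7: 3 of 6 tested members were called, 1 higher and 2 lower, against 11.2% of all genes. Cd14 read 1878 CPM in the lowest pGE2 library, 2143 at the median and 2904 in the highest, and the highest library of any other group read 1057. The log2 fold change was 2.22 ± 0.13 against DMSO (SE; adjusted p = 1.46e-34), 4.66-fold, and it was 2.09 on plate 1 and 2.33 on plate 2. Tlr7 read from 6.16 CPM through 23.5 to 35.1, touched the lowest DMSO library at 34.8, and fell by 1.26 ± 0.30 on the log2 scale (SE; adjusted p = 0.000785). Tlr1 read from 9.48 through 15.9 to 30.0 CPM and fell by 1.22 ± 0.29 (SE; adjusted p = 0.000945), near its NoStim median of 17.6 CPM. On plate 2 alone neither fall passed, with -0.91 for Tlr7 (adjusted p = 0.225) and -0.85 for Tlr1 (adjusted p = 0.409). Without wells B and F Tlr1 gave -0.92 (adjusted p = 0.0581).

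The remaining members did not pass. Tlr2 in pGE2 wells, at 444 ± 38.3 CPM (SD, n = 8), had a log2 fold change of -0.21 ± 0.12 (SE; adjusted p = 0.303), although its partner Tlr1 was called. Myd88 gave -0.51 ± 0.22 (SE; adjusted p = 0.141) and Tlr13 -0.92 ± 0.34 (SE; adjusted p = 0.0657; 0.0483 with the Rn45s share as a covariate and 0.0477 without wells C and G). Ticam1, at 0 to 4 counts a library, gave -1.33 ± 0.49 (SE; adjusted p = 0.134). In the wider pathway Pycard, the inflammasome adaptor ASC (-1.06 ± 0.17), Casp4 (-0.61 ± 0.16) and Casp1 (-0.53 ± 0.16) fell among the 5 cytosolic sensing genes and none rose, Msr1 fell (-1.12 ± 0.16), and Tab2 fell (-0.47 ± 0.13). Over all genes 11.2% were called, and Tab2, the 1 of 11 kinases and ligases called, lies near that share. Errors are SE.

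Markers of other cells had too few counts to be tested. The summed granulocyte and dendritic cell markers were higher on average in pGE2 than in DMSO wells, with overlapping ranges. Fibroblast markers summed to 0.83 CPM in pGE2 and 3.22 CPM in DMSO wells, and mast cell markers to 0 and 0.39 CPM. B cell markers were at 0 in both groups, and T cell markers summed to 0.98 and 0.90 CPM. The 4 granulocyte markers in the table summed to 13.2 CPM on average in pGE2 wells, from 2.73 to 21.8, against 2.69 CPM in DMSO wells, from 0 to 7.41, with Elane and Mpo at 0. The 5 dendritic cell markers summed to 36.9 CPM, from 27.3 to 48.0, against 26.2 CPM, from 10.7 to 37.1. Flt3, Zbtb46 and Dpp4 were at 0 in pGE2 wells, and Flt3 and Zbtb46 in DMSO wells. Over all libraries Xcr1 held 507 counts and no other dendritic cell marker more than 40. In BrefA wells the dendritic cell markers summed to 34.6 CPM, from 14.2 to 58.7. The part of these cell markers in the member results was not tested.

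pGE2 and Dexa were also compared with each other, without DMSO. There 4 of 6 tested members were called, against 13.3% of all genes: Cd14 was higher in pGE2 wells (log2 fold change 1.94 ± 0.12, adjusted p = 4.34e-30), and Tlr7, Tlr13 and Tlr1 were lower. Tlr7 read 41.7 CPM in the lowest Dexa library, 68.4 at the median and 95.5 in the highest, and every pGE2 library lay below that group, at -1.60 ± 0.28 (SE; adjusted p = 2.73e-06). Tlr13 read 4.36 CPM, 17.0 and 30.0 in pGE2 wells and 32.7, 49.7 and 89.0 in Dexa wells, again without overlap, at -1.59 ± 0.31 (SE; adjusted p = 3.03e-05). Tlr1 gave -1.31 ± 0.29 (SE; adjusted p = 0.00018), but on plate 2 alone -1.03 (adjusted p = 0.203). Both endosomal receptors thus had their lowest group means of the screen in pGE2 wells, at 21.5 CPM for Tlr7 and 16.7 CPM for Tlr13.

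Torin lowered Myd88 without a called change in any receptor: 2 of 6 tested members were called, 0 higher and 2 lower, against 16.7% of all genes. Myd88 read 10.8 CPM in the lowest Torin library, 21.0 at the median and 37.2 in the highest, all below the lowest DMSO library at 46.1. It was 3.24-fold lower, a log2 fold change of -1.69 ± 0.28 (SE; adjusted p = 4.11e-07), and the value was -1.70 on plate 1 and -1.72 on plate 2. Its group mean of 21.7 ± 9.73 CPM (SD, n = 8) was the lowest of the 12 groups, beside 27.0 ± 7.89 CPM in NoStim. The overlapping gene Acaa1a was also lower in Torin wells, by -1.09 ± 0.34 (SE; adjusted p = 0.0147); without stated strand use, reads of the pair cannot be told apart where they overlap.

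Cd14 read from 333 CPM through 378 to 426 in Torin wells and had a log2 fold change of -0.37 ± 0.13 (SE; adjusted p = 0.0365). It overlapped DMSO. The value was -0.23 on plate 2 (adjusted p = 0.59), -0.38 after the plates' wells were summed (adjusted p = 0.0716), and the call was also lost when any 1 of the 4 wells was left out on both plates (adjusted p from 0.0759 to 0.144). Tlr2 stood at 538 ± 44.4 CPM (SD, n = 8), with a log2 fold change of 0.06 ± 0.12 (SE; adjusted p = 0.789). Tlr13 gave 0.77 ± 0.30 (SE; adjusted p = 0.0595; 0.0378 with the Rn45s share as a covariate, 0.0169 in the compared groups alone and 0.0186 without wells A and E) and Tlr7 0.41 ± 0.26 (SE; adjusted p = 0.305). The pathway lists are to be read against the 16.7% of all genes called. Ly86, the MD-1 relative of MD-2 (-0.78 ± 0.22), and Msr1 (-0.77 ± 0.16) fell among 4 LPS-binding proteins and MD-2 relatives. Pycard fell (-0.76 ± 0.17), 1 of 5 cytosolic sensing genes and near that share. Among 7 folding and transport genes Ctsl rose (0.79 ± 0.11), and Hsp90b1, the chaperone gp96 that folds Toll-like receptors (-0.54 ± 0.18), and Ctsb (-0.27 ± 0.10) fell. No gene of the other lists was called. Errors are SE.

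BrefA also lowered Myd88, the 1 of 6 tested members called, against 17.3% of all genes. That count lies near the share over all genes. Myd88 read 0 CPM in the lowest BrefA library, 33.0 at the median and 68.8 in the highest and overlapped DMSO. The log2 fold change was -1.16 ± 0.25 (SE; adjusted p = 9.1e-05). It was -2.07 on plate 1 (adjusted p = 2.22e-05) and -0.59 on plate 2 (adjusted p = 0.267), where the BrefA means were 17.5 and 47.3 CPM. Acaa1a gave -0.04 ± 0.28 (SE; adjusted p = 0.952) here. Tlr2, at 485 to 799.7 CPM with a median of 582, gave 0.26 ± 0.12 (SE; adjusted p = 0.131), and Cd14 gave 0.07 ± 0.13 (SE; adjusted p = 0.813).

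Ticam1, the TRIF gene, had its highest group mean in BrefA wells. It read 10.7 CPM in the lowest library, 29.6 at the median and 59.9 in the highest, or 2 to 17 counts, against 10.6, 15.0 and 32.0 CPM in DMSO wells. The groups overlapped, and the log2 fold change of 0.97 ± 0.37 (SE; adjusted p = 0.133) did not pass in the fit without a filter, while DESeq2 gave 1.04 (adjusted p = 0.0381). Against NoStim, at 3.26, 8.15 and 21.2 CPM, the value was 1.83 ± 0.40 (SE; adjusted p = 8.32e-05), with 1.21 on plate 1 (adjusted p = 0.222) and 2.32 on plate 2 (adjusted p = 0.00094). In that comparison of BrefA with NoStim 4 of 6 tested members were called, 3 higher and 1 lower, against 37.3% of all genes. Tlr2 (1.96 ± 0.13), Tlr1 (1.49 ± 0.29) and Cd14 (1.25 ± 0.13) rose and Tlr13 fell (-0.93 ± 0.28; adjusted p = 0.295 on plate 2, 0.0987 without wells A and E and 0.107 without wells C and G), while Myd88 gave 0.28 ± 0.28 (SE; adjusted p = 0.465). Tlr7 was not called either (0.20 ± 0.28, SE; adjusted p = 0.619).

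The pathway lists in BrefA wells had calls in both directions. Pycard (log2 fold change -0.92 ± 0.17), Casp1 (-0.69 ± 0.17) and Casp4 fell and Nlrp3 rose (0.71 ± 0.15) against DMSO, and Ly86 (-1.07 ± 0.22) and Msr1 (-0.86 ± 0.16) fell. Hsp90b1 (0.87 ± 0.17) and Ctsl (0.39 ± 0.11) rose among 7 folding and transport genes, Tbk1 fell (-0.74 ± 0.23) among 11 kinases and ligases, and Trafd1 fell (-0.84 ± 0.16) among 5 negative regulators. Over all genes 17.3% were called against DMSO. The 1 of 11 kinases and ligases lies below that share, and the 1 of 5 negative regulators near it. Errors are SE.

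Halofuginone lowered Tlr1, Tlr2 and Cd14: 3 of 6 tested members were called, 0 higher and 3 lower, against 40.3% of all genes. The count called in either direction lies near the share over all genes. The median log2 fold change was -0.68 over the members and -0.20 over all genes. These libraries were also the shallowest, and the ribosomal RNA gene Rn45s took 44.7% ± 3.20 of their counts against 19.4% ± 4.64 in DMSO wells (SD, n = 8 each). Of 7 tested macrophage markers, Cd68, Lyz2 and Mrc1 were called higher and Fcgr1 lower than in DMSO wells, and their part in the member results was not tested. Cd14 read 86.0 CPM in the lowest Halofuginone library, 186 at the median and 244 in the highest, all below DMSO, with a log2 fold change of -1.47 ± 0.17 (SE; adjusted p = 5.7e-13). Tlr2 read from 136 through 247 to 557 CPM, or 8 to 38 counts, overlapped DMSO by its 1 highest library and fell by 0.90 ± 0.15 (SE; adjusted p = 2.32e-07). With the Rn45s share as a covariate Tlr2 gave -0.39 (adjusted p = 0.204). Tlr1 was at 0 in 3 of the 8 libraries and at no more than 2 counts in the others, and gave -1.59 ± 0.47 (SE; adjusted p = 0.00398). On plate 2 it gave -1.23 (adjusted p = 0.217), with the Rn45s share as a covariate -0.47 (adjusted p = 0.656), and without wells D and H -1.17 (adjusted p = 0.0602).

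Against NoStim, 3 of 6 members were called in Halofuginone wells, 2 higher and 1 lower, against 54.2% of all genes. That count lies near the share over all genes. Tlr2 gave 0.80 ± 0.16 (SE; adjusted p = 1.21e-05), and 0.69 with the RLE size factors (adjusted p = 0.000262). On CPM of the whole library, Rn45s included, the means were 188 CPM in Halofuginone and 194 CPM in NoStim wells. With Rn45s and Lars2 left out of the total, the means were 388 and 238 CPM. Without wells A and E Tlr2 gave 0.38 (adjusted p = 0.0914). Myd88 gave 0.97 ± 0.36 (SE; adjusted p = 0.0158) and Tlr13 -1.01 ± 0.42 (SE; adjusted p = 0.0324), and both lost their call without wells B and F or without wells C and G (adjusted p from 0.0595 to 0.179). Cd14 gave -0.29 ± 0.18 (SE; adjusted p = 0.174), but -0.53 (adjusted p = 0.0128) in the fit without a filter. Among the cytosolic sensing genes, Pycard (-2.20 ± 0.28), Casp1 (-0.91 ± 0.23) and Gsdmd fell and Nlrp3 rose (1.21 ± 0.16) against DMSO. Among 11 kinases and ligases 3 rose, including Map3k7, the kinase TAK1 (0.91 ± 0.37), and Irak4 (0.79 ± 0.33), and 2 fell, led by Tab2 (-1.36 ± 0.18). Of 5 negative regulators Tollip (1.24 ± 0.36) and Tnfaip3 (0.78 ± 0.22) rose and Trafd1 fell (-0.66 ± 0.21). Among 7 folding and transport genes none rose and 3 cathepsin genes fell, Ctss (-1.07 ± 0.13), Ctsb (-0.79 ± 0.10) and Ctsl (-0.45 ± 0.13), and Msr1 fell (-0.69 ± 0.19). Over all genes 40.3% were called against DMSO. The folding and transport genes called and the kinases and ligases called lie near that share. Errors are SE.

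Tunicamycin and Caspase-1 wells each gave 1 called member of 6, Cd14, higher in both, against 4.37% and 2.9% of all genes. In Tunicamycin wells Cd14 read 533 CPM in the lowest library, 636 at the median and 1057 in the highest and overlapped DMSO. The log2 fold change was 0.54 ± 0.13 (SE; adjusted p = 0.00349), with 0.66 on plate 1 (adjusted p = 0.00656) and 0.40 on plate 2 (adjusted p = 0.738), and without wells C and G it was 0.48 (adjusted p = 0.0666). In Caspase-1 wells it read 482, 639.5 and 864 CPM, also overlapping, at 0.42 ± 0.12 (SE; adjusted p = 0.0408), and neither plate alone passed, with adjusted p = 0.0722 on plate 1 and 0.776 on plate 2. Leaving out any 1 of the 4 wells on both plates also ended that call (adjusted p from 0.0572 to 0.173). Tlr1 in Tunicamycin wells, at 70.5 ± 22.8 CPM (SD, n = 8) its highest group mean, gave 0.63 ± 0.24 (SE; adjusted p = 0.111). Tlr2 in Caspase-1 wells, at 649.6 ± 116 CPM (SD, n = 8) likewise its highest, gave 0.33 ± 0.12 (SE; adjusted p = 0.0917; 0.0394 with DESeq2 and 0.0234 in the compared groups alone). Among the pathway lists Ctsl (0.40 ± 0.11) and Ctss (0.42 ± 0.11; SE) rose in Caspase-1 wells, and no listed gene was called in Tunicamycin wells.

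Dexa, Baflo and ZVAD gave 0 called members of 6 by edgeR and 0 by DESeq2, against 3.57% of all genes for Dexa and 0% for Baflo and for ZVAD. At an unadjusted p below 0.05, edgeR gave 2 of 6 tested members for Dexa, 1 for Baflo and 0 for ZVAD. Over all genes the shares at that threshold were 12.5%, 7.52% and 3.55%. For Dexa these were Tlr13, with a log2 fold change of 0.68 ± 0.29 (SE; adjusted p = 0.251), and Cd14, with 0.28 ± 0.13 (SE; adjusted p = 0.309). For Baflo it was Tlr1, with 0.58 ± 0.24 (SE; adjusted p = 0.591). Over all genes, where edgeR and DESeq2 each made 0 calls for Baflo and for ZVAD, 373 and 176 genes had an unadjusted p below 0.05. In ZVAD wells the 6 tested members ran from -0.56 for Tlr13 to -0.04 for Cd14 on the log2 scale. Of the low members, Ticam1, at 0 to 4 counts a library, gave -1.28 ± 0.47 there by edgeR without a filter (SE; unadjusted p = 0.00699, adjusted p = 0.942). A gene that was called in Dexa wells lay in the pathway lists: Irak3, the inhibitory kinase IRAK-M, rose by 1.98 ± 0.35 (SE; adjusted p = 1.36e-05).

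**Figure D3:**
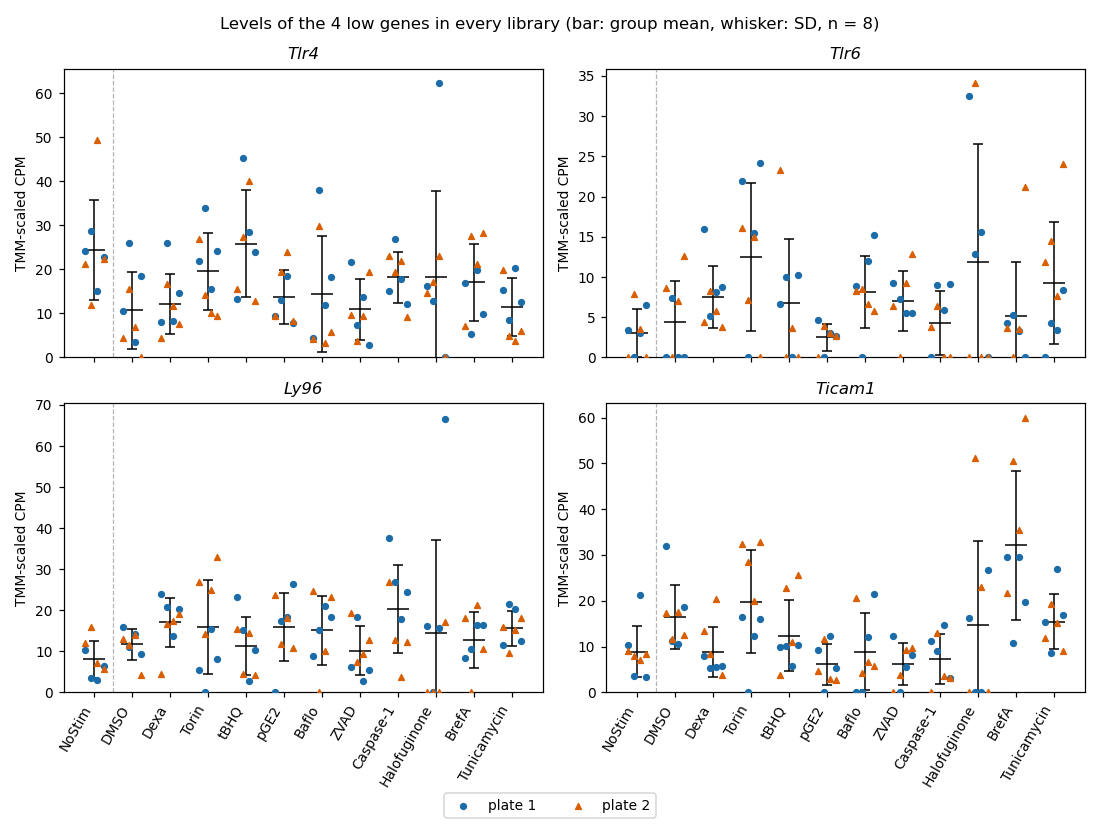
TMM-scaled CPM (linear axis) of Tlr4, Tlr6, Ly96 and Ticam1, the 4 members under the count filter, by group, with 1 mark for each library (circles for plate 1, triangles for plate 2), a bar at the group mean and a whisker of 1 SD (n = 8). Most marks stand for a few counts, and libraries at 0 lie on the axis; Ticam1 reaches its highest mean, 32.2, in BrefA.

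Ordered by group mean, few steps between neighbouring groups exceeded the larger of the neighbours' SDs. For Tlr2 the order ran from Caspase-1 through BrefA, Baflo, Torin, Tunicamycin, DMSO, ZVAD, Dexa and pGE2 to Halofuginone, NoStim and tBHQ, and 2 of 11 steps exceeded the spread, pGE2 to Halofuginone and NoStim to tBHQ. For Cd14 it ran from pGE2 through Tunicamycin, Caspase-1, Dexa, Baflo, BrefA, DMSO, ZVAD and Torin to tBHQ, NoStim and Halofuginone. There 3 of 11 steps exceeded it, pGE2 to Tunicamycin, ZVAD to Torin and Torin to tBHQ. For the other 8 members 0 of 11 steps did. Myd88 ran from 80.0 ± 10.5 CPM in Caspase-1 wells to 21.7 in Torin wells, Tlr1 from 70.5 in Tunicamycin to 15.2 in Halofuginone, Tlr7 from 69.0 ± 30.3 in Torin to 21.5 in pGE2 and Tlr13 from 58.7 ± 13.8 in NoStim to 16.7 in pGE2 (SD, n = 8 each). Tlr4 ran from 25.8 CPM in tBHQ and 24.4 in NoStim wells to 10.7 in DMSO wells, Ticam1 from 32.2 in BrefA to 6.10 in ZVAD, Ly96 from 20.3 in Caspase-1 to 8.01 in NoStim, and Tlr6 from 12.5 in Torin to 2.50 in pGE2.

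The members did not share a single pattern over the 12 group means of log2 CPM. Between pairs of tested members Pearson's r ran from -0.46 for Tlr13 with Cd14 to 0.67 for Tlr1 with Tlr2. Among other tested genes of at least 30 CPM in a group, the patterns most like that of Tlr2 were those of Exoc3l4, Nfkbie (an inhibitor of NF-kB) and Src (a tyrosine kinase), with r of 0.961, 0.958 and 0.952. For Cd14 they were D16Ertd472e (0.950), Timp1, a metalloprotease inhibitor (0.944), and Pxk (0.927), and for Myd88 Ifit3, an interferon-induced gene (0.899), Dtx2 (0.887) and Rbm43 (0.880). For Tlr1 they were Slc31a1 (0.949), Lims1 (0.933) and Kars (0.917). The closest were Bcl2l1 (0.874), Asap1 (0.849) and Edn1 (0.809) for Tlr7, and Hk1 (0.864), Atp13a2 (0.846) and Arid1b (0.843) for Tlr13. These values describe 12 points that share libraries and scaling.

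Each plate was also fitted alone. Of 32 called member changes over the 15 comparisons, 32 had the same direction on both plates, 30 passed on plate 1 alone and 18 on plate 2 alone. The 32 were chosen by the fit of both plates together, which favours a shared direction, so that agreement is not separate evidence. In 14 of the 32 no library of one group reached the other group. The share of such changes among all called genes was not computed, and most of the 32 share DMSO or NoStim libraries. In 21 of the 32 the change was larger on plate 1. Wells with the same name on the plates deviated together from their group mean, with a mean correlation of 0.234 over 1428 genes, and when their counts were summed Tlr2, Cd14, Tlr1 and Myd88 kept their calls against DMSO for tBHQ. With wells summed the calls of Cd14 for Torin (adjusted p = 0.0716) and for Caspase-1 (adjusted p = 0.0855) were lost. So was that of Tlr13 in Halofuginone against NoStim wells (adjusted p = 0.0532).

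**Figure D4:**
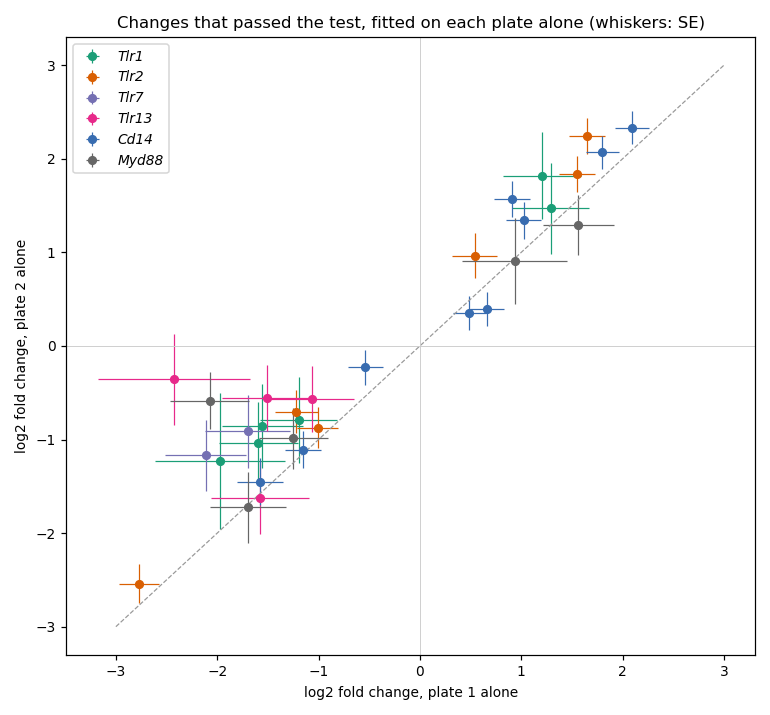
Log2 fold change on plate 1 (x axis) against plate 2 (y axis) for each called member change, coloured by gene, with whiskers of 1 SE and a dashed line of equality. All 32 points, chosen by the fit of both plates together, share their sign on both plates, and 21 lie farther from 0 on plate 1.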

How the data were processed

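The deposited table holds whole-number counts per gene symbol for 96 libraries of 3′ transcript ends, amplified with 15 PCR cycles per the labels' protocols. Per the submitters' processing notes reads were aligned with BWA to mm10. The annotation, the collapsing of molecular identifiers and the treatment of shared reads are not stated in the sources used here, so counts may not be independent molecules.

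From these counts edgeR 4.0.16 (R 4.3.3) was run on all 96 libraries at once, with filterByExpr, TMM scaling, a term for each group and for plate, and its robust two-sided quasi-likelihood test. Benjamini-Hochberg adjustment ran over the 4963 genes tested, with a threshold of 0.05. Levels were shown as TMM-scaled CPM in place of the whole-library CPM first planned, which served as an alternative. Low members were taken from the same fit without a filter. Alternatives included DESeq2 1.42.0, other scalings and filters, each plate alone, summed wells and left-out wells. The scripts were tested on simulated counts.

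The 10 members and the pathway lists were chosen with earlier results of these data known. All members were named, and at most 3 called genes of each list per comparison, those with the largest fold change, were given values. Same-named wells of the plates differed by more than sampling noise (chi-square per degree of freedom from 1.52 to 7.84 over 48 pairs, median 1.97) and were kept as separate libraries. The median was 2.30 for different wells of a plate and 2.71 for different wells across plates. Same-named wells were thus the most alike at the median. The sources used here do not state whether they are 1 culture run on both plates, so 8 libraries may not be 8 cultures. Deviations of same-named wells from group means correlated at 0.234 on average, while wells with the same letter in other groups of a plate correlated at 0.0691 on average (lowest -0.479). Whether letters pair the groups was not tested, and the main fit had no term for them.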

Additional observations from a re-analysis of the deposited data

Results flagged for a closer look

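In 13 of 120 sets of 8 libraries (10 genes in 12 groups) the highest library stood apart from the others by Dixon's criterion, its gap to the next library divided by the range being above the 95% critical value. Chance flags about 1 set in 20. Among members with many counts, Tlr2 read 639.5 CPM in Torin plate 1 well H, above the next library at 555, and Cd14 read 955.2 CPM in Dexa plate 1 well H, above the next at 683.2. Myd88 read 103.8 CPM in Baflo plate 1 well H and 58.12 CPM in tBHQ plate 2 well G, the library by which tBHQ overlapped DMSO. Tlr13 read 51.46 CPM in Caspase-1 plate 2 well F.

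The other sets rest on few counts. Tlr4 read 62.39 CPM in Halofuginone plate 1 well G, from 4 counts, and 49.37 CPM in NoStim plate 2 well C, from 14 counts. Tlr6 read 21.14 CPM in BrefA plate 2 well H, 15.91 CPM in Dexa plate 1 well E and 23.27 CPM in tBHQ plate 2 well E, from 4 to 6 counts each. Ly96 read 66.63 CPM in Halofuginone plate 1 well H, from 5 counts. Ticam1 read 31.95 CPM in DMSO plate 1 well E and 21.24 CPM in NoStim plate 1 well C, from 6 and 7 counts.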

How the results depend on the processing

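Of the 41 member fold changes followed over the alternatives, those of tested members that were called and those of the 4 low members with an unadjusted p below 0.05, 0 reversed their sign. Others, not called, did on a single plate: Tlr13 in Halofuginone against DMSO wells gave -0.23 on both plates together and 0.21 on plate 2. Of the fold changes followed, 599 values kept their side of the threshold, 58 lost it and 6 gained it. Counts of called members were within 1.5 times the reported count in 218 alternatives and moved further in 33. For Torin (2 reported) the count was 1 with no plate term, on plate 2 alone, with wells summed, with DESeq2 and with Rn45s and Lars2 left out, and 1 to 2 without each replicate in turn. For pGE2 (3) it was 1 on plate 2 alone and 1 in a fit of the compared groups alone, where Tlr1 and Tlr7 were too low to be tested. For Caspase-1 (1) it was 0 with no filter, with no plate term, on either plate alone, with wells summed, with the Rn45s share as a covariate and without each replicate in turn, and 2 with DESeq2 and in the compared groups alone. For Halofuginone (3) it was 1 with the Rn45s share as a covariate, and 2 to 3 without each replicate. For BrefA (1) it was 0 on plate 2 alone and 2 with DESeq2. For Tunicamycin (1) it was 0 on plate 2 alone and 0 to 1 without each replicate. For tBHQ against NoStim (1) it was 0 on plate 2 alone. For Halofuginone against NoStim (3) it was 1 on plate 2 alone and in the compared groups alone, where Tlr13 and Myd88 were too low to be tested, and 1 to 2 without each replicate. For pGE2 against Dexa (4) it was 2 in the compared groups alone. Elsewhere the cause was not tested.

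The replicate block, a term for the well letter, was fitted among LPS groups and left every count of called members as reported: 0 for Dexa, 2 for Torin, 4 for tBHQ, 3 for pGE2, 0 for Baflo, 0 for ZVAD, 1 for Caspase-1, 3 for Halofuginone, 1 for BrefA, 1 for Tunicamycin and 4 for pGE2 against Dexa. NoStim wells carry other letters and could not be blocked. Over all genes the block raised the Caspase-1 count from 144 to 244. RLE scaling moved the median of all genes by -0.15 for DMSO against NoStim and by 0.14 for tBHQ. Depth limits Tlr4, Tlr6, Ly96 and Ticam1 most, and all members in Halofuginone wells, where 1 count was worth 15.1 CPM.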
